A study of Arabidopsis thaliana with 18 samples.

Results

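In Arabidopsis petioles, 85 of 22746 probe sets were lower in plants grown in a dense canopy than in single plants but had means less than 0.3 below control light (log2) under a reduced ratio of red to far-red light (low R:FR), under low blue light and under both together. They were chosen by their measured values. The canopy mean had to lie at least 0.7 below the mean of single plants on the log2 scale with no overlap of the arrays, and each of the 3 light treatments had to lie above -0.3 against control light. The canopy part of the rule was met by 363 probe sets, 1.6% of all, and the whole rule by 85, 0.374% of all. A further 277 of the 363 fell by 0.3 or more on average in at least 1 light treatment. UGT84A3 met both parts but was left out, because symbols starting with UGT were not to be included. That exclusion went by symbol, so members known only by a locus name or probe set may still belong to the UGT family. Of the 85 members, 40 could be assigned to a single gene and 45 are known here only by their probe set. Of the 40 genes, 5 carry a symbol and 35 only a locus name, for which no role is given.

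All plants were wild-type Col-0, and RNA came from petioles, the stalks that carry the leaf blades. In the density experiment, petioles were taken at an age of 37 d from single plants and from neighbours packed into a canopy at 2066 plants per m2, with 3 arrays each, and each array held petioles pooled from 4 plants. In the light experiment, single plants aged 29 d were harvested after 24 h under control light, under low R:FR, under low blue light, or under the 2 cues at once (called combined), again with 3 arrays each. The labels give control light for both density groups, and they leave unsaid whether each light replicate was its own pool. The p-values therefore measure only how far these samples spread, which may be technical. The 37 d and 29 d plants differed in age and experiment together, and these cannot be told apart.

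Leaves absorb red and blue light and reflect or pass far-red light, so a low R:FR and weak blue light both signal neighbours. Phytochromes sense the first and cryptochromes the second, and petioles answer by growing longer and moving upward, a response called shade avoidance. A canopy also shades, touches and encloses leaves, so growth in a canopy and 24 h of an altered light spectrum are not the same stimulus.

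Each value is the authors' deposited log2 level of 1 probe set, a group of short probes for 1 transcript, so a difference of 1 is a 2-fold change. Array medians ran from 1.6 to 1.66 and arrays of the same group correlated at 0.9783 to 0.9939. No 2 arrays held identical values. Some members were dim: 21 of the 85 averaged below 1.5 in the canopy, where the size of a decrease is bounded by the lowest readable level. The median level of the 85 members over the 18 arrays was 3.35, against 1.64 for all probe sets, of which 46.8% averaged below 1.5. By mean over the 18 arrays, 57 members lay at 2 or more, and no filter on low values was used. In whole petioles, fewer cells of a type and less RNA per cell cannot be told apart.

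The members fell by a median of 0.90 on the log2 scale in the canopy, a value set by the rule and given as a description without a test. The changes ran from -3.41 to -0.71. They were mostly small, with 56 members between -1 and -0.7, 23 between -1.5 and -1, 5 between -2 and -1.5, and 1 beyond -2. The gap between the lowest array of single plants and the highest canopy array had a median of 0.49 and ranged from 0.04 to 2.62. The members also varied more than most probe sets among single plants, with a median SD of 0.28 (n = 3) against 0.13 over all probe sets. This was not particular to single plants: in the other groups the median SD was 0.17 to 0.23, against 0.12 to 0.15. Among single plants, replicate 2 was the lowest array for 50 of the 85 members and replicate 3 the highest for 47.

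**Figure D1:**
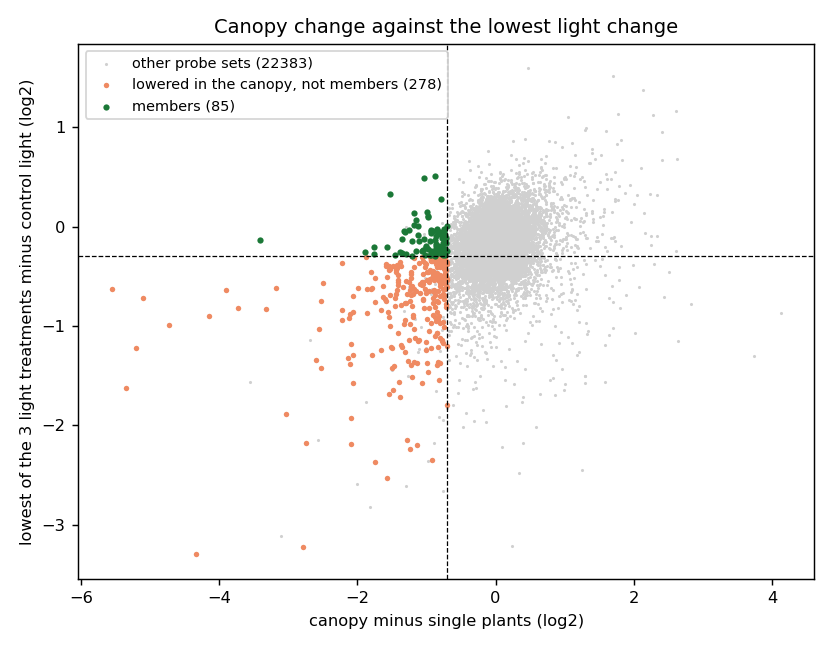
Each point is 1 probe set, placed by canopy minus single plants (horizontal axis, log2) and by the lowest of the 3 light treatments minus control light (vertical axis, log2), with dashed lines at -0.7 and -0.3. The 85 members (green) lie to the left of and above the lines by construction, and most sit close to the corner, while 278 other probe sets lowered in the canopy (orange, UGT84A3 among them) were not members.

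Among the 5 members with a gene symbol were 3 enzymes of metabolism. VTC4 encodes an L-galactose-1-phosphate phosphatase of the ascorbate (vitamin C) pathway. Its level was 7.2, 6.67 and 7.32 in the 3 arrays of single plants and 5.57, 5.82 and 5.77 in the canopy, a change of -1.35 ± 0.19 (limma SE), or 2.54-fold lower. In control light it was 6.27, 6.28 and 6.6, between single plants and canopy. All canopy arrays of VTC4 lay below all 12 light arrays, whose lowest value was 5.98, a combined array.

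WSD1 encodes a wax ester synthase that makes wax esters of the cuticle. Its level was 4.63, 4.63 and 4.45 in single plants and 3.32, 3.11 and 3.32 in the canopy, a change of -1.32 ± 0.31 and 2.49-fold lower. Control light gave 4.12, 3.67 and 2.62, a spread that covered the canopy values. The mean in low R:FR was 0.67 ± 0.31 above control light, with arrays at 4.61, 3.97 and 3.85. The canopy arrays of WSD1 lay below all arrays of low R:FR and of the combined treatment, and overlapped those of control light and low blue light.

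AAE15 encodes a plastid acyl-activating enzyme that can join fatty acids to acyl carrier protein. It read 3.78, 3.86 and 4.50 in single plants and 3.05, 2.98 and 3.31 in the canopy, a change of -0.94 ± 0.16, or 1.91-fold lower. The single plants were the group that stood apart for AAE15, because control light read 3.11, 3.31 and 3.20, close to the canopy, and the 3 light treatments differed from control light by 0.08, -0.03 and 0.08. AT4G14090, another member, lies near AAE15 in the TAIR10.1 annotation, with 2 protein-coding genes between them. It changed by -0.74 ± 0.25, and its arrays of single plants were uneven at 1.51, 1.19 and 2.49. Of the genes between, AT4G14100 was measured and went from 3.63 to 3.37, a change of -0.26 ± 0.10 with an adjusted p of 0.21 by limma.

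The other two with a symbol are a regulator and a protease. TINY2 encodes a transcription factor of the AP2/ERF family, in its DREB group. Its level was 3.25, 2.79 and 3.26 in single plants and 2.18, 1.93 and 1.8 in the canopy, a change of -1.13 ± 0.21, or 2.19-fold lower. TINY2 was low in control light too, at 2.17, 1.59 and 1.18, so single plants at 37 d were above all other arrays and the canopy was not below the younger plants. SBT1.3 encodes a subtilisin-like serine protease. It read 3.03, 3.14 and 3.55 in single plants and 2.52, 2.54 and 1.36 in the canopy, a change of -1.10 ± 0.29. The canopy mean of SBT1.3 rests in part on that last, low array, and in control light it read 3.42, 3.12 and 2.56, close to the single plants.

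The member with a gene name that fell most was AT3G03790. It read 4.97, 4.24 and 5.58 in single plants and 3.41, 2.92 and 3.20 in the canopy, a change of -1.76 ± 0.29, or 3.38-fold lower. All its light arrays, from 2.69 to 3.55, lay near the canopy and below the single plants. The next loci in size were AT3G59300 at -1.21 ± 0.33, AT3G43110 at -1.15 ± 0.16, AT5G17600 at -1.05 ± 0.15 and AT5G45670 at -1.03 ± 0.24. They did not share 1 profile over the 6 groups, since AT3G43110 and AT5G17600 were high only in single plants, while AT5G45670 was low only in the canopy. AT2G45340, AT4G09500, AT2G04570, AT5G41460, AT2G38010, AT1G79520 and AT3G19970 changed by between -0.99 and -0.93. AT1G67600, AT1G24735, AT1G22850, AT5G42760, AT2G16630, AT1G64140, AT1G18360 and AT4G18280 changed by between -0.90 and -0.83. Of these, AT1G22850 read 6.66, 6.83 and 6.92 in single plants and 5.69, 6.05 and 6.04 in the canopy, and AT1G64140 read 6.50, 5.95 and 6.01 against 5.27, 5.21 and 5.41. The remaining 15 named members changed by between -0.81 and -0.71.

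**Figure D2:**
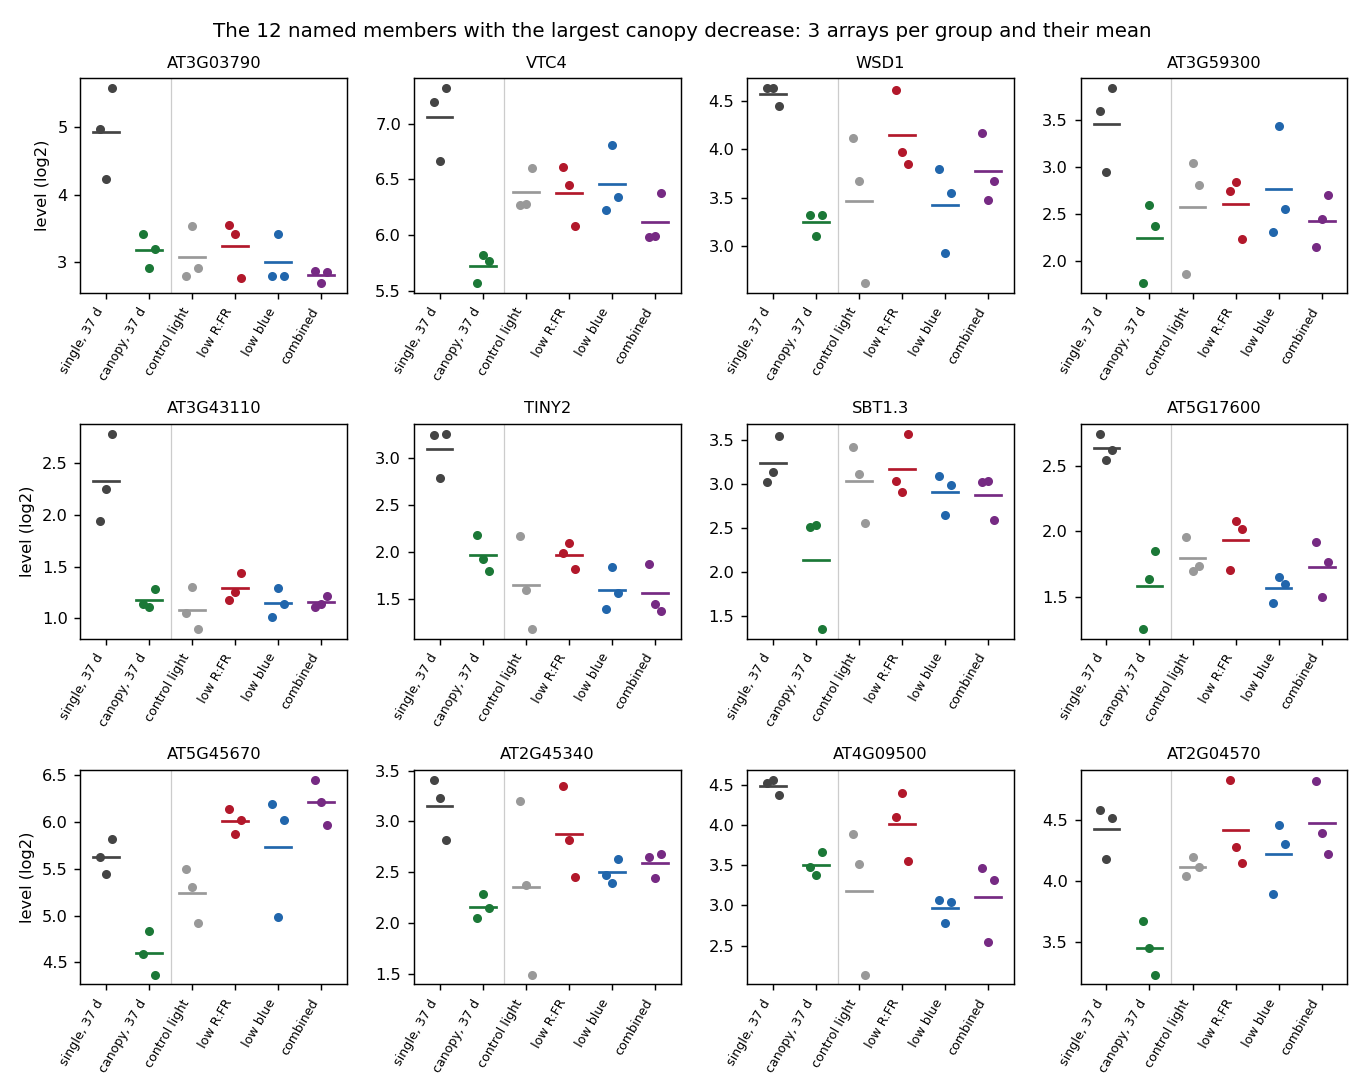
Points are the 3 arrays of each of the 6 groups and lines are their means (log2 level, each panel with its own axis) for the 12 named members with the largest canopy decrease. Single plants stand above every other group in AT3G03790, AT3G43110, TINY2 and AT5G17600, whereas the canopy stands below every other group in VTC4, SBT1.3, AT5G45670 and AT2G04570.

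The strongest decrease of all was in a probe set with no gene assigned here, 263391_at, singled out after its values were seen. It read 4.56, 3.90 and 5.21 in single plants and 1.02, 1.28 and 1.15 in the canopy, a change of -3.41 ± 0.28, or 10.6-fold lower. Its 12 light arrays ran from 0.81 to 1.98. Thus 263391_at was near the low end of the scale everywhere except in single plants at 37 d, with a difference of 3.19 between those plants and control light. The unnamed 246075_at and 253296_at, at -1.90 and -1.75, had the same form, whereas 246380_at, at -1.53, had canopy arrays of 2.46, 2.36 and 2.53 below all light arrays.

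Both limits of the rule cut through a continuum. Just inside the canopy limit were 258483_at at -0.706, 264057_at at -0.707, AT3G13175 at -0.712, 259146_at at -0.713 and AT4G16240 at -0.729. Just outside it were AT1G73170 at -0.698, 256185_at at -0.697, 264372_at at -0.696, 266132_at at -0.693 and AT3G06035 at -0.693. The lowest light change was -0.298 in AT5G42760 and -0.296 in 254810_at, both inside, and -0.304 in AT3G15570 and -0.305 in AT5G57610, both outside. These gaps are far below the median SE of 0.20 for the canopy and for each light difference of the members.

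The rule barred mean decreases of 0.3 or more in light but not increases, so the lower side of the members' light changes was fixed beforehand. In low R:FR the quartiles of the member changes were -0.04 and 0.32, against -0.12 and 0.09 over all probe sets. The median member change was 0.13 in low R:FR, -0.07 in low blue light and -0.05 in the combined treatment, against -0.01, 0.00 and 0.00 over all probe sets. In low R:FR 59 of the 85 (69.4%) were above control light, in low blue light 25 (29.4%) and in the combined treatment 36 (42.4%). Of all probe sets, 46.9%, 50.3% and 48.8% were above it. The mean was above control light in all 3 treatments for 12 members and below it in all 3 for 15. These light changes are descriptions, because the rule used them. A mean above -0.3 does not show that a member did not fall: in 4 members all arrays of at least 1 light treatment lay below all control light arrays. By treatment these were 2 members in low R:FR, 3 in low blue light and 1 in the combined treatment, against 8.58%, 5.37% and 7.52% of all probe sets, shares from which nothing is read here since the rule kept such members out.

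Some members rose in light while they were low in the canopy, a movement the rule permitted. A rise of 0.5 or more without overlap of the arrays was seen in 10 members in low R:FR, 1 in low blue light and 5 in the combined treatment. Over all probe sets the shares were 1.94%, 1.17% and 2.51%. The rule had put a floor under these same differences from control light. The counts are therefore descriptions, and nothing is read from them beside these shares. The 8 named members highest in the combined treatment were AT5G45670, AT2G16630, AT4G18280, AT1G12845, AT2G04570, AT1G50110, WSD1 and AT2G45340. Their changes against control light ran from 0.96 down to 0.24.

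AT5G45670 had the highest combined change of the 40 named members. It read 5.50, 5.31 and 4.92 in control light and 6.45, 6.21 and 5.97 in the combined treatment, a difference of 0.96 ± 0.24. In low R:FR it read 6.14, 5.87 and 6.02, and in low blue light 6.19, 4.98 and 6.02. The combined and low R:FR arrays of AT5G45670 all lay above control light, the low blue arrays overlapped it, and its canopy arrays, from 4.37 to 4.84, lay below every other array. AT2G16630 was 0.73 ± 0.27 higher in the combined treatment, with arrays at 4.2, 3.84 and 4.43 against 3.57, 3.01 and 3.71. AT4G18280 was 1.16 higher in low R:FR, at 4.74, 5.11 and 5.12 against 4.40, 3.29 and 3.80, and 0.55 ± 0.25 higher in the combined treatment, where its arrays overlapped control light.

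At the other end, the 8 named members lowest in the combined treatment were AT3G03790 at -0.27 ± 0.29, VTC4 at -0.27 ± 0.19, AT1G79520 at -0.24 ± 0.16, AT5G17010 at -0.22 ± 0.21, AT4G16240 at -0.21 ± 0.31, AT4G33040 at -0.20 ± 0.27, AT5G63130 at -0.20 ± 0.14 and AT3G22850 at -0.19 ± 0.11. All of these differences were within 2 SE of 0. AT3G22850 was lower in all 3 treatments, by -0.22 in low R:FR and -0.24 in low blue light, and its low blue and low R:FR arrays lay below its control light arrays, which read 4.12, 4.40 and 4.16. The probe set of AT4G16240 is of a type that can pick up other transcripts, so its values may not be of that gene alone.

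**Figure D3:**
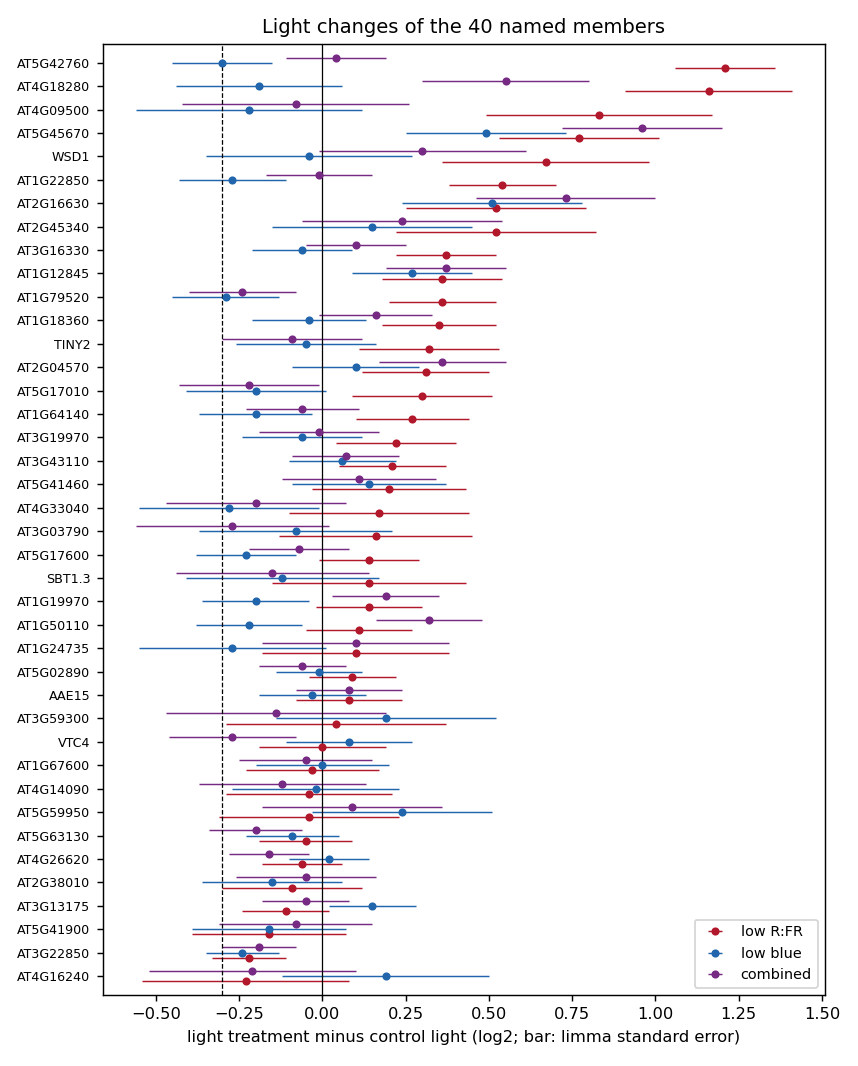
Points give low R:FR (red), low blue (blue) and combined (purple) minus control light for the 40 named members (log2), bars are limma standard errors, and the dashed line marks the limit of -0.3. AT5G42760 and AT4G18280 reach 1.21 and 1.16 in low R:FR, while most of the other points lie within 0.5 of control light.

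To see what low R:FR did on top of low blue light, the combined treatment was set against low blue light. The rule had put a floor under both means, so the members' counts are not independent of how they were chosen. They are given as a description, nothing is read from their direction or from the shares of all probe sets, and each adjusted p is that of the fit over the whole array. By limma with Benjamini-Hochberg adjustment over all 22746 probe sets, 3 of the 85 members were higher in the combined treatment and 0 lower, against 0.787% and 0.497% of all probe sets (1.28% in either direction). At an unadjusted p under 0.05, 7 members were higher and 0 lower, against 5.38% and 5.69% (11.1% in either direction). The called members, all without a gene assigned here, were 262933_at, 266908_at and 256757_at. Probe set 262933_at read 6.14, 6.10 and 5.90 in the combined treatment and 4.98, 4.90 and 4.96 in low blue light, a difference of 1.11 ± 0.15 (adjusted p = 0.0006). In low R:FR it read 6.0, 6.04 and 5.83 and in control light 5.27, 5.50 and 4.91, so both treatments with low R:FR were high and low blue light alone was not. In the canopy it read 4.82, 4.72 and 4.44, below all those arrays.

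The other calls against low blue light were less stable. Probe set 266908_at read 4.70, 4.95 and 4.99 in the combined treatment and 3.71, 3.63 and 4.26 in low blue light, a difference of 1.01 ± 0.22 (adjusted p = 0.029). It lost its call when any 1 of the 3 combined replicates or low blue replicate 1 or 2 was left out, with an adjusted p of up to 0.15. Probe set 256757_at read 3.5, 4.05 and 3.74 against 2.90, 2.85 and 3.29, a difference of 0.75 ± 0.16 (adjusted p = 0.03). It lost its call in 4 of the 6 fits that left out 1 array, with an adjusted p of up to 0.17, and in the fit of the light arrays alone (0.072). Both differed in the same direction throughout, and the groups did not overlap for either.

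To see what low blue light did on top of low R:FR, the combined treatment was set against low R:FR, with the same limit, since the rule had filtered both of these means too. Here 2 members were called, against 0.448% of all probe sets, 1 higher and 1 lower, against 0.189% and 0.259%. At an unadjusted p under 0.05 there were 11 (8.04% of all probe sets), 2 higher and 9 lower, against 4.34% and 3.69%. AT5G42760 read 2.75, 2.7 and 3.03 in low R:FR and 1.65, 1.8 and 1.53 in the combined treatment, a difference of -1.17 ± 0.15 (adjusted p = 0.0026). Control light gave 1.79, 1.76 and 1.3 and low blue light 1.34, 1.43 and 1.19, so only low R:FR without low blue light was high among the light groups. In the density experiment AT5G42760 read 2.55, 2.90 and 2.43 in single plants and 1.68, 1.6 and 1.98 in the canopy. The unnamed 248914_at went the other way, with 4.18, 4.1 and 4.07 in the combined treatment and 3.54, 3.18 and 3.08 in low R:FR, a difference of 0.85 ± 0.13 (adjusted p = 0.0044). In low blue light alone it read 4.32, 4.23 and 4.22 against 3.62, 3.49 and 3.51 in control light, so both treatments with low blue light were high. The calls of 262933_at, 248914_at and AT5G42760 held when any 1 array of the groups compared was left out.

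**Figure D4:**
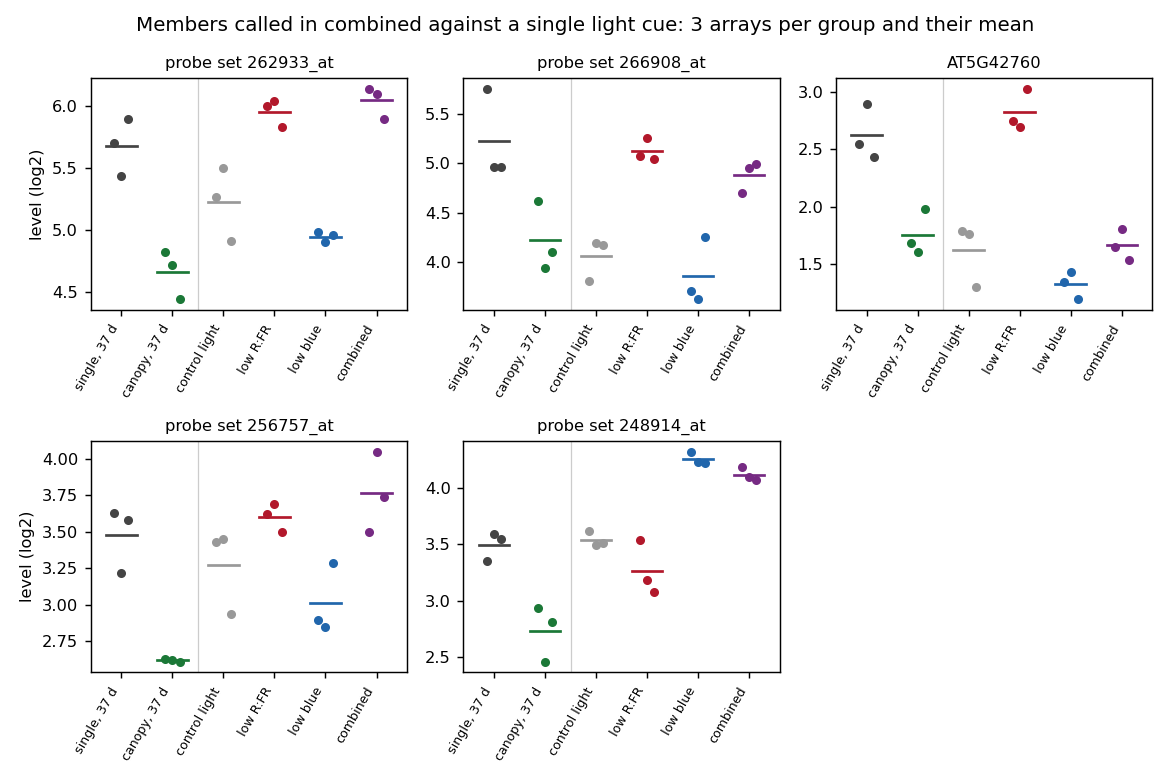
Points are the 3 arrays of each group and lines their means (log2 level, each panel with its own axis) for the 5 members called between the combined treatment and 1 of its parts. Probe sets 262933_at and 266908_at and AT5G42760 are high in low R:FR and not in low blue light, and 248914_at is high in both groups with low blue light.

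The levels at 37 d were also set beside those of the younger plants in control light, which differ from them in age and experiment. Single plants at 37 d were above control light at 29 d in 81 of the 85 members, by a median of 0.62 (all probe sets, -0.01), and the canopy was below it by a median of 0.29, with 12 members above it. Since members were chosen for high single plants and low canopy plants, part of both shifts follows from the choice. Among the 277 other probe sets lowered in the canopy, chosen by the same canopy limit, the medians were 0.54 and -0.56, a difference not tested here.

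By array, 36 of the members (42.4%) had all 3 arrays of single plants above all 12 light arrays, against 1.38% of all probe sets and 27.4% of the 277. In 18 members (21.2%) all 3 canopy arrays were below all 12 light arrays, against 0.739% and 7.22%. The 277 had been set apart by a lower light mean, which by itself makes a canopy below all light arrays rarer, so nothing is read from these differences between the sets. One unnamed probe set, 262809_at, did both. Of the members with only the first pattern 15 have a gene name, among them AT3G03790, AT3G43110, TINY2, AT5G17600, AT2G38010, AAE15, AT1G67600, AT1G64140, AT1G18360 and AT3G22850. For these 35 members single plants were 0.79 above control light by the median and the canopy 0.20 below. The 7 named members with only the second pattern were VTC4, SBT1.3, AT5G45670, AT2G04570, AT3G19970, AT5G02890 and AT1G12845. For that set of 17 members single plants were 0.20 above control light and the canopy 0.67 below. The other 32 members, with WSD1, AT3G59300, AT2G45340, AT4G09500 and AT5G42760 among them, had neither pattern.

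**Figure D5:**
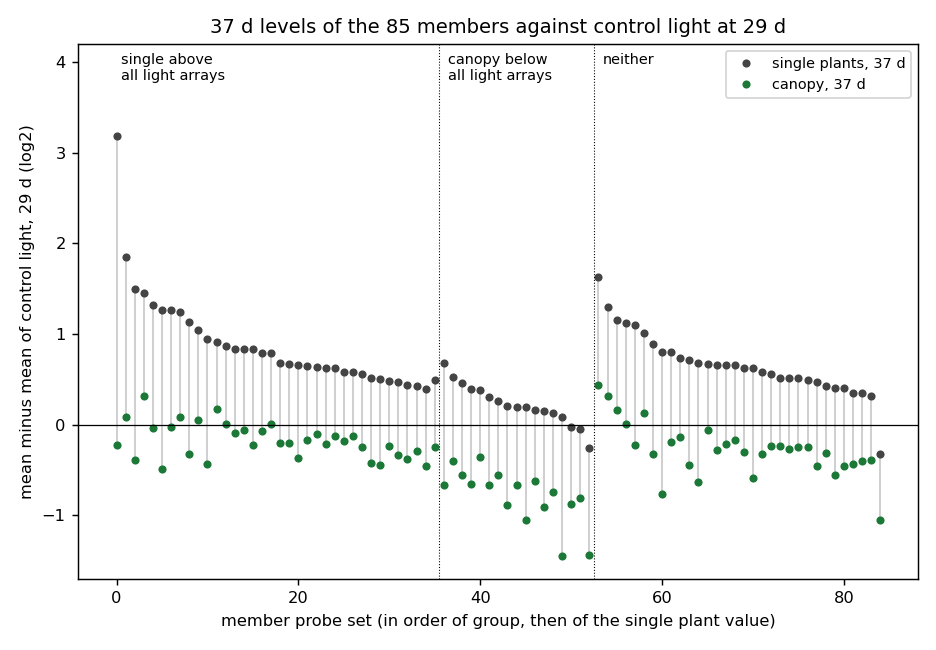
For each of the 85 members, points show the mean of single plants (black) and of the canopy (green), both at 37 d, minus the mean of control light at 29 d (log2), with members sorted into those with single plants above all 12 light arrays (left, with 262809_at, which has both patterns, as its last), canopy below all 12 (middle) and neither (right). On the left the medians are 0.79 for single plants and -0.20 for the canopy over the 35 with that pattern alone, and in the middle they are 0.20 and -0.67, while single members of each set, such as VTC4, lie about as far from 0 on both sides.

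Lists of pathway genes were set beside the members, but few of their genes have a probe set that could be named. Of 672 entries in 25 pathway lists, 47 genes were measured under a name, in 20 lists, and 0 were members. By limma, 1 of the 47 was higher in the canopy and 6 were lower at an adjusted p under 0.05, against 2.11% and 2.15% of all probe sets. The lower ones were GI, a clock and photoperiod gene (-0.95 ± 0.14, adjusted p = 0.00083), LHCB4.3, a light-harvesting protein (-1.42 ± 0.16, 6.7e-05), APL3 and APL4, large subunits of the first committed enzyme of starch synthesis (-1.59 ± 0.29, 0.0033, and -0.51 ± 0.12, 0.027), and the beta-glucosidases BGLU44 (-1.3 ± 0.30, 0.019) and BGLU47 (-2.10 ± 0.34, 0.0014). APL4 alone of these stayed within 0.06 of control light in every light treatment. It thus met the light limit of the members, many of which moved further, but its canopy change missed the limit of -0.7. CSLC04, a xyloglucan backbone synthase, was higher (0.70 ± 0.19, 0.045). The list genes PDF1.2 and BCAT4 changed more, by -3.56 ± 1.42 and -2.78 ± 0.95, but were not called by limma (adjusted p = 0.23 and 0.14). The calls of APL4, BGLU44 and CSLC04 were lost in 4, 3 and 5 of the alternative fits, with an adjusted p of up to 0.16, 0.10 and 0.21.

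Cell type markers, in lists of their own, were scarce, with 7 of 49 listed genes measured under a name, 1 higher and 1 lower in the canopy, and none for the epidermis, xylem, trichomes or flowers. CHX20, a guard cell cation exchanger, was lower in the canopy (-2.10 ± 0.36, adjusted p = 0.0023), while the guard cell lineage genes FMA and SPCH gave -0.24 (0.54) and -0.03. The summed linear level of these 3 was 16.0 to 35.0 in single plants and 9.03 to 11.1 in the canopy. Most of that fall was from CHX20, with log2 means of 4.35 and 2.25. FMA went from 1.90 to 1.67, and SPCH, near the low end of the scale, from 0.91 to 0.88. PYK10, a beta-glucosidase abundant in roots, was higher, from 1.52 to 3.21 (adjusted p = 0.041, lost in 6 alternative fits with up to 0.19). RCA, the mesophyll marker, gave -0.19 (0.35), SWEET11, a phloem marker, -0.02, and HTR12, of dividing cells, 0.05. The means of SWEET11 and HTR12 were at most 1.35 in every group, so a decrease could hardly be seen and nothing is read from them. The part of such shifts in the decreases of the members was not tested.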

How the data were processed

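The authors deposited log2 expression values of 22810 ATH1 probe sets on 18 arrays, made with RMA per the submitters' processing notes. Neither the software version nor the set of arrays normalized at once is given in the sources used here. The bacterial controls bioC, bioD and cre lay 1.50, 3.83 and 6.32 above bioB, nearer to the nominal steps in log2 (1.74, 4.06, 6.06) than in natural log (1.20, 2.81, 4.20). After 64 control probe sets were removed, 22746 were tested with no filter. GEO's platform annotation gave 1 gene for 13513, several for 503, and did not list 8730.

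Means, SDs and the membership rule were computed in Python 3.11.15. limma 3.58.1 in R 4.3.3 fitted all 18 arrays by group, with p-values adjusted by Benjamini-Hochberg and called under 0.05. The steps were tested on simulated data. Same-numbered replicates of the combined treatment and of low blue light or low R:FR, the groups tested, correlated at -0.19 to 0.15, so no pairing was used.

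The members and gene lists were chosen with earlier results of these data known. Named genes were the 25 named members most lowered in the canopy and the 8 highest and 8 lowest in the combined treatment. The 5 on each side of the canopy limit and the called members were named too. Up to 4 per gene list were planned, but the pathway list genes named were those called between canopy and single plants. PDF1.2 and BCAT4 were added for the size of their changes. Other names were chosen after their values were seen. One list entry, whose symbol belongs to another gene, was left out. The alternatives were other limits, quantile normalization, a filter on dim probe sets, other limma settings, a replicate block and leaving out each array.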

Additional observations from a re-analysis of the deposited data

How the results depend on the processing

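The number of members depended mainly on the limits: 29 at a canopy limit of -1, 228 at -0.5, 49 at a light limit of -0.2 and 164 at -0.5, against 85. Leaving out 1 array gave 78 to 134, the highest without replicate 2 of the single plants, and 24 of the 85 were members in all 18 such fits. Quantile normalization also gave 85, of which 82 were shared. The median canopy change ran from -0.99 to -0.88 without 1 array. Of 595 recomputed canopy changes of members 0 reversed. Without 1 array a reversal was not possible, since the rule allowed no overlap of the arrays, so nothing is read from this count. Members called between combined and low blue light numbered 3, and 1 to 3 without 1 array. Those called between combined and low R:FR numbered 2, also in every fit without 1 array, and 1 with a mean of at least 2 required, which removed AT5G42760. A replicate block kept both member counts, at 3 and 2. Over all probe sets, 292 were called against low blue light and 102 against low R:FR, compared with 124 to 332 and 52 to 68 without 1 array, and with 200 for the second under array weights. Of 548 recomputed canopy tests of list genes 18 lost and 12 gained a call. Low signal limits the size of decreases that end below about 1.5.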
